A study of Homo sapiens with 6 samples.

Results

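HLA class I antigen presentation was followed through 9 genes: HLA-B, HLA-E and HLA-F (heavy chains), B2M (the light chain), TAP1 and TAP2 (the peptide transporter), TAPBP (tapasin), and PSMB8 and PSMB9 (immunoproteasome subunits). The members were all probe sets annotated to these genes, 22 of the 54613 probe sets analysed, and 18 of them passed the filter on low values (deposited intensity above 50.4 on at least 2 of the 6 arrays). Each of the 22 lists 1 gene. The 6 HLA probe sets of the array that list several genes are all class II and were not members. Of the 22, 7 have names ending in _x_at, which marks probes that can cross-hybridise with related transcripts: all 3 of HLA-B, 2 of the 3 of HLA-E (200905_x_at and 217456_x_at) and 2 of the 3 of HLA-F (204806_x_at and 221875_x_at).

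RNA was measured on 6 Affymetrix arrays, 1 for each of 3 conditions in AGS and in HGC-27, both human gastric carcinoma lines. Parental cells were untransfected, with no mention of a sort in their labels. The GFP control received 3 µg of empty vector with 1.5 µg of a GFP plasmid by nucleofection, an electrical transfection. The third condition received MIST1, the basic helix-loop-helix factor encoded by BHLHA15, in place of the empty vector. Both transfected populations were sorted on GFP at 24 h and grown for a further 24 h before RNA extraction. There was 1 array per condition and line, so the 2 lines are the only replicates of a condition. In such bulk RNA, fewer cells expressing a gene and less of its RNA per cell cannot be told apart.

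Class I molecules carry short peptides to the cell surface, where cytotoxic T cells read them. The proteasome cuts the peptides, TAP pumps them into the endoplasmic reticulum, tapasin holds the empty heavy chain and B2M dimer at TAP, and the loaded complex leaves for the surface. Most genes of the pathway are known targets of interferons and of NF-kB, and natural killer cells read the same molecules as a sign of self.

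Arrays of the same line correlated at r = 0.9677 to 0.9948 over 30923 probe sets, with the GFP control and the array labelled MIST1 closest (0.9948 in AGS, 0.9934 in HGC-27), and arrays of different lines at 0.725 to 0.750. The lines differed in lineage markers: 5 of 5 epithelial genes were higher in AGS and 3 of 3 mesenchymal genes higher in HGC-27. Of the leukocyte markers, PTPRC read 15.2 to 52.4 and did not pass the filter, while CD3E, at 41.6 to 66.7, passed it. BHLHA15 itself read 66.3, 75.9 and 72.5 in AGS (parental, GFP control, labelled MIST1) and 41.1, 61.9 and 58.7 in HGC-27. It did not set the arrays labelled MIST1 apart from the GFP controls, and the labels do not say whether this probe set can read the construct. In HGC-27 the median of all 30923 probe sets lay 0.13 higher on the log2 scale in the GFP control than in the parental array, against 0.02 after quantile normalization, so HGC-27 differences from parental cells are read against that shift.

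Of the 9 genes, 8 lie on chromosome 6 in GRCh38.p14 and B2M on chromosome 15. TAP2, PSMB8, TAP1 and PSMB9 follow each other in that order, and the starts of TAP1 and PSMB9 are 488 bases apart and point away from each other. The 250 bases before the annotated start of HLA-B, HLA-F, B2M, TAP1, TAP2 and TAPBP are shown (RefSeq, GRCh38.p14, 5′ to 3′ on the strand of the gene). These genes are shown because they read higher in both GFP controls than in parental cells and carry an interferon or NF-kB motif, for which class I promoters are known. The pairing of the 2 traits is therefore a choice and not a result. PSMB8 has an interferon motif before its second start, is not shown, and did not read higher (limma difference -0.03, GFP control against parental). A link between motifs and values was not tested. In HGC-27, TAP1 (0.10 on the log2 scale), TAPBP (0.07 and 0.03) and B2M 201891_s_at (0.10) lay under the shift of 0.13 of all probe sets. Capitals mark matches to the interferon-stimulated response element (ISRE) core, GAAA and GAAA with any 2 bases between, or to the kappaB motif, on either strand, in these windows: HLA-B at chr6:31357180-31357429 (minus strand), HLA-F at chr6:29723184-29723433 (plus), B2M at chr15:44711267-44711516 (plus), TAP1 at chr6:32853705-32853954 (minus), TAP2 at chr6:32838740-32838989 (minus) and TAPBP at chr6:33314079-33314328 (minus).
HLA-B: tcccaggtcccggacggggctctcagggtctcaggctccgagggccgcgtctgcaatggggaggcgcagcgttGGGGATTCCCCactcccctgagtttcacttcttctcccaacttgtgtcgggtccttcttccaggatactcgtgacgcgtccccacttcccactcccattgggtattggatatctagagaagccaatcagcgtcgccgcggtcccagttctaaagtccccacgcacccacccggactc
HLA-F: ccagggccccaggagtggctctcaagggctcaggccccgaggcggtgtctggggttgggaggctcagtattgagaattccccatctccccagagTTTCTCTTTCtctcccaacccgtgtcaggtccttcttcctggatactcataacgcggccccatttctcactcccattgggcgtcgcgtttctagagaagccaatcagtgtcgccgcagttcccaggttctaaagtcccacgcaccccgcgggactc
B2M: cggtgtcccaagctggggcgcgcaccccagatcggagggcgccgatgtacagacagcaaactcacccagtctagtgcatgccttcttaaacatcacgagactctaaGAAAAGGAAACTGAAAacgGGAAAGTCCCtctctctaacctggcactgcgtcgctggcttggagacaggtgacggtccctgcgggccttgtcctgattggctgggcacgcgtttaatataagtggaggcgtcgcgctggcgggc
TAP1: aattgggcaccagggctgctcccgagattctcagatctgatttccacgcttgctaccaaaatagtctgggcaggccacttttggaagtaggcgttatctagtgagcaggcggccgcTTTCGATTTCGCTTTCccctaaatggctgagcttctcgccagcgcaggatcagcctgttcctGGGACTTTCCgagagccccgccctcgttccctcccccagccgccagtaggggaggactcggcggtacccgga
TAP2: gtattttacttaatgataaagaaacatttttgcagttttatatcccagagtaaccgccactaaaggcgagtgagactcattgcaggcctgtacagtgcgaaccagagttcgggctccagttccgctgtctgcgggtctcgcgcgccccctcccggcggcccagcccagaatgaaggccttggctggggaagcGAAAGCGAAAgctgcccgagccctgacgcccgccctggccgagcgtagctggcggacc
TAPBP: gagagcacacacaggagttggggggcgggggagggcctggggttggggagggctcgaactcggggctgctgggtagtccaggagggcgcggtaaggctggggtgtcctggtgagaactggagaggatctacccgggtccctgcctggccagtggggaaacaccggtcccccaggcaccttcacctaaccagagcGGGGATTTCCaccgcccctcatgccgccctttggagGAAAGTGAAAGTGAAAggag

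Motifs were searched on both strands from 250 bases before to 50 bases after each start, in the 10 promoters of the 8 members that have an entry. HLA-E had no entry, so its promoter was neither searched nor shown. The ISRE core was in 6 of the 10, against 3.57% of 35114 promoters of all genes. It starts 144 and 138 bases before the start of B2M, 58 before that of TAP2, and as overlapping matches 134 and 128 before that of TAP1. HLA-F has it 156 bases before its start, TAPBP 20 and 14 before, and PSMB8 4 before the second of its starts. The kappaB motif was in 4 of 10 (HLA-B, B2M, TAP1 and TAPBP), against 5.91% of all promoters. The GAS motif TTCNNNGAA was in 2 of 10 (1 start each of TAP1 and PSMB8), against 7.66%. The Y box CCAAT was in 5 of 10, against 34.6%, and CATATG, an E-box that MIST1 is known to bind, in 0 of 10, against 3.04%. In HLA-B the 2 kappaB matches overlap, 177 and 176 bases before the start. A match describes letters in the window, not a site in use, and a window without one says nothing about the factor.

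The first comparison asked what transfection and sorting went with, GFP control against parental cells. The heavy chains read higher in the GFP control in both lines, but in unequal measure: HLA-B more in AGS, HLA-E more in HGC-27. B2M, TAP1 and TAPBP differed less, 1 TAP2 probe set stood apart in HGC-27, and the immunoproteasome subunits had no shared direction. No member passed limma's test (a linear model per probe set with the cell line as a block, p adjusted over all 30923 probe sets, threshold 0.05), against 1.15% of all probe sets. The values are deposited intensities in the order parental, GFP control and array labelled MIST1.

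HLA-B, a classical heavy chain that presents peptides to CD8 T cells, was read by 3 probe sets. 209140_x_at was 1548 in AGS parental cells, 2767 with GFP and empty vector and 2783 on the array labelled MIST1. For HGC-27 the same probe set read 1055, 1310 and 1124. Both transfected AGS arrays were high and alike, while the HGC-27 arrays stayed near the parental value. 208729_x_at read 2482, 3842 and 3819 in AGS, against 1348, 1589 and 1341 in HGC-27, and 211911_x_at read 2227, 3543 and 3527 against 1142, 1353 and 1162. GFP control over parental was 1.55 to 1.79-fold in AGS and 1.18 to 1.24-fold in HGC-27 over the 3 probe sets. The limma differences over both lines were 0.43, 0.46 and 0.57 on the log2 scale (SE 0.15, 0.15 and 0.18, adjusted p = 0.152, 0.146 and 0.127).

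HLA-E, a nonclassical heavy chain that shows leader peptides of other class I chains to the NKG2A receptor of natural killer cells, had the opposite order of lines. 200904_at read 336, 411 and 414 in AGS, against 204, 409.6 and 393 in HGC-27. In HGC-27 parental cells it was the lowest of the 6 arrays, and in both transfected HGC-27 arrays it reached the level of transfected AGS cells. 217456_x_at read 378, 525 and 495 in AGS, against 137, 312 and 267 in HGC-27, and 200905_x_at read 1412, 1887 and 1763 in AGS, against 706, 1094 and 1186 in HGC-27. All 3 probe sets had both transfected arrays above the parental array in each line. The GFP control was 1.22 to 1.39-fold the parental value in AGS and 1.55 to 2.28-fold in HGC-27. The limma differences were 0.53 (SE 0.13, adjusted p = 0.0851) for 200905_x_at, 0.65 (SE 0.20, adjusted p = 0.132) for 200904_at and 0.83 (SE 0.20, adjusted p = 0.083) for 217456_x_at.

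HLA-F, a nonclassical heavy chain that can reach the surface without peptide, read 2157, 3201 and 3189 in AGS with 221875_x_at and 1317, 1790 and 1491 in HGC-27. 204806_x_at gave nearly the same numbers, 2137, 3074 and 3095 against 1373, 1754 and 1474. The GFP control was 1.44 to 1.48-fold the parental value in AGS and 1.28 to 1.36-fold in HGC-27, and the limma differences were 0.51 for 221875_x_at (SE 0.11, adjusted p = 0.0733) and 0.44 for 204806_x_at (SE 0.12, adjusted p = 0.103). The third HLA-F probe set, 221978_at, did not pass the filter, with 13.1 to 42.0 over the arrays. It does not carry the cross-hybridisation mark, and the 2 that passed do, so the HLA-F values may hold signal of other class I chains, which was not tested.

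B2M, the invariant light chain, had small differences of the same size in both lines. 216231_s_at read 10134, 11339 and 11570 in AGS, against 7669, 8758 and 9049 in HGC-27, and 201891_s_at read 9589, 10481 and 10452 against 7485, 8025 and 8164. In both lines the transfected arrays lay above the parental one. The GFP control was 1.09 to 1.12-fold the parental value in AGS and 1.07 to 1.14-fold in HGC-27, with limma differences of 0.18 (SE 0.04, adjusted p = 0.0892) and 0.11 (SE 0.05, adjusted p = 0.196). The third B2M probe set, 232311_at, was dim (11.96 to 29.6) and did not pass the filter.

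TAP1 read 443, 576 and 562 in AGS, against 219, 235 and 211 in HGC-27. Both transfected AGS arrays lay above their parental array, and the HGC-27 arrays lay on either side of theirs. The GFP control was 1.30-fold the parental value in AGS and 1.07-fold in HGC-27 (limma difference 0.24, SE 0.16, adjusted p = 0.389).

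TAP2, the partner of TAP1, was read unlike by its probe sets. 204769_s_at read 465, 549.5 and 549.7 in AGS, against 241, 475 and 505 in HGC-27, where the GFP control was 1.97-fold the parental value against 1.18-fold in AGS. 225973_at read 95.4, 123 and 133 in AGS, against 430, 490 and 534 in HGC-27, and 204770_at read 86.7, 111 and 100.99 against 214, 252 and 261. For these 2 the GFP control was 1.28 to 1.29-fold the parental value in AGS and 1.14 to 1.18-fold in HGC-27. Every transfected array lay above its parental array for the 3 probe sets, with limma differences of 0.61 (SE 0.22, adjusted p = 0.166), 0.28 (adjusted p = 0.298) and 0.30 (adjusted p = 0.295). The fourth, 208428_at, read 19.2 in HGC-27 parental cells and 33.8 and 36.4 in the transfected ones, and did not pass the filter.

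TAPBP, which edits the peptide cargo at TAP, read 834, 978 and 958 in AGS with 208829_at and 568, 595 and 535 in HGC-27. 1555565_s_at read 477, 543 and 485 against 336, 342 and 287. The GFP control was 1.14 to 1.17-fold the parental value in AGS and 1.02 to 1.05-fold in HGC-27, with limma differences of 0.15 and 0.11 (adjusted p = 0.514 and 0.676). The dim probe set 210294_at, at 26.3 to 47.8, did not pass the filter.

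PSMB8, the LMP7 subunit that replaces a constitutive catalytic subunit in the immunoproteasome, read 614, 645 and 557 in AGS, against 243, 223 and 187 in HGC-27. PSMB9, the LMP2 subunit, read 135, 156 and 118 in AGS, against 189, 151 and 127 in HGC-27. In AGS the GFP control was the highest array for both genes, and in HGC-27 the parental array was. The GFP control was 1.05 and 1.16-fold the parental value in AGS and 0.918 and 0.799-fold in HGC-27. The limma differences were -0.03 (adjusted p = 0.929) and -0.06 (adjusted p = 0.878).

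**Figure D1:**
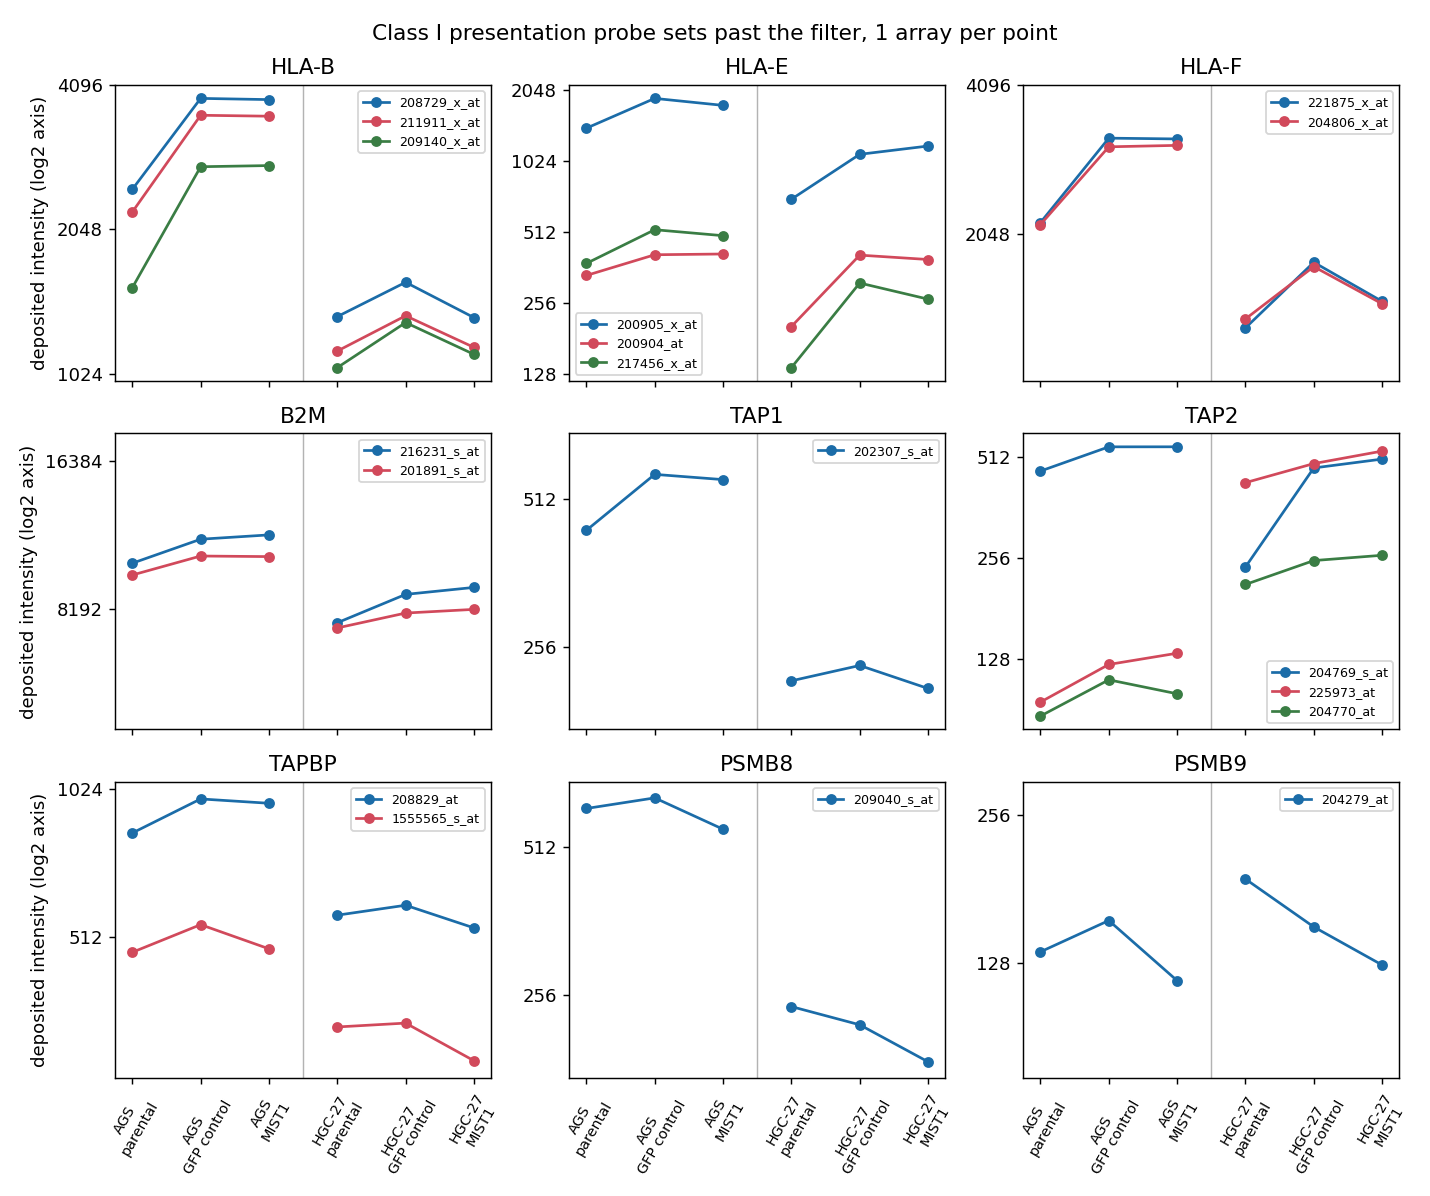
Deposited intensity (log2 axis, its range set for each gene) of the 18 probe sets past the filter, 1 array per point, with the 3 AGS arrays left of the grey line and the 3 HGC-27 arrays right of it. HLA-B and HLA-F step up from parental to transfected AGS cells, HLA-E and TAP2 204769_s_at step up in HGC-27, and PSMB9 is lowest in AGS in the array labelled MIST1.

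Over the members, the GFP control was higher than parental cells in both lines for 16 of 18 probe sets, against 36% of all probe sets, and lower in both for 0, against 24.7%. The 16 are of 7 genes, and 7 of them are _x_at heavy chain probe sets that may share signal, so they are not separate observations. The 2 exceptions were PSMB8 and PSMB9. At an unadjusted p under 0.05, limma called 11 of 18, all higher, against 14.3% higher among all probe sets; they were the 3 of HLA-B, the 3 of HLA-E, the 2 of HLA-F, the 2 of B2M and TAP2 204769_s_at. A GFP control value at least 1.5-fold the parental one was found in 3 of 18 in AGS, all of HLA-B, against 8.08%, and in 4 of 18 in HGC-27, the 3 of HLA-E and TAP2 204769_s_at, against 14.4%. The members' median difference was 0.37 on the log2 scale, beside 0.06 for all probe sets. Within lines it was 0.37 beside 0.00 in AGS, and 0.24 beside 0.13 in HGC-27.

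The calls of this comparison depend on which arrays estimate the spread. Fitted on only the 4 arrays compared, 6 of 18 passed, all higher, where 6.77% of all probe sets did: HLA-B 208729_x_at, 211911_x_at and 209140_x_at (adjusted p = 0.0462, 0.0456 and 0.0127), HLA-E 217456_x_at (0.0143), and HLA-F 221875_x_at and 204806_x_at (0.0165 and 0.0495). With 1 array left out, the count has to be read against that of all probe sets in the same fit. It was 12 where 32.1% of all were called (without the HGC-27 parental array), 9 where 37.1% were (without the AGS parental array), 7 where 7.04% were (without the HGC-27 array labelled MIST1), 3 where 6.25% were (without the AGS one), 1 where 2.72% was (without the AGS GFP control) and 0 where 1.63% was (without the HGC-27 GFP control). Without a parental array the parental cells are read from the array of the other line alone, while the transfected arrays of both lines stay in the fit.

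The next comparison asked whether the response differed between lines, as transfected (both arrays) against parental cells in HGC-27 compared with AGS. It differed for 3 of 18 members, against 9.95% of all probe sets. The p-values here measure the spread between the 2 transfected arrays of a line. They hold no spread between parental arrays, of which each line has 1. HLA-B 209140_x_at was 1.79-fold the parental value in AGS, against 1.15-fold in HGC-27, a difference of -0.64 on the log2 scale (SE 0.14, adjusted p = 0.0428). HLA-E 200904_at went the other way, 1.23-fold in AGS and 1.96-fold in HGC-27 (difference 0.68, SE 0.14, adjusted p = 0.0385). TAP2 204769_s_at was 1.18-fold in AGS and 2.03-fold in HGC-27 (0.78, SE 0.13, adjusted p = 0.0293). Thus 1 of 3 HLA-B and 1 of 3 HLA-E probe sets passed, in opposite directions. All 3 of HLA-B are _x_at ones, and the _x_at probe set of HLA-C gave -0.52 (adjusted p = 0.099 by limma).

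The other probe sets of the same genes shared the direction for HLA-B and HLA-E and not for TAP2. HLA-B 208729_x_at and 211911_x_at gave -0.51 and -0.53 (adjusted p = 0.0735 and 0.0588). HLA-E 217456_x_at and 200905_x_at gave 0.64 and 0.32 (adjusted p = 0.0738 and 0.133). TAP2 225973_at and 204770_at gave -0.18 and -0.03 (adjusted p = 0.508 and 0.934). For B2M the difference was 0.04 and -0.01, with 95% intervals from -0.09 to 0.17 and from -0.13 to 0.10. HLA-F (-0.26 and -0.30), TAP1 (-0.33), TAPBP (-0.22 and -0.21), PSMB8 (-0.21) and PSMB9 (-0.46) did not pass, with adjusted p from 0.204 to 0.521. The members' median was -0.21, beside 0.14 for all probe sets.

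These 3 calls rest on 2 residual degrees of freedom. After quantile normalization HLA-B 209140_x_at kept its call, while HLA-E 200904_at (0.49, adjusted p = 0.0801) and TAP2 204769_s_at (0.57, adjusted p = 0.0656) lost theirs. All 3 calls were lost with the floor at the median of all values (adjusted p = 0.0906 for HLA-B, 0.0576 for HLA-E and 0.0561 for TAP2) and without the trend in limma (0.111, 0.0699 and 0.0627), and that of HLA-B also without the filter (0.193). Without any 1 of the 4 transfected arrays, 0 of all 30923 probe sets were called, so these fits bear on no single gene. In them the differences ran from -0.75 to -0.53 for HLA-B 209140_x_at, from 0.65 to 0.71 for HLA-E 200904_at and from 0.74 to 0.83 for TAP2 204769_s_at.

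**Figure D2:**
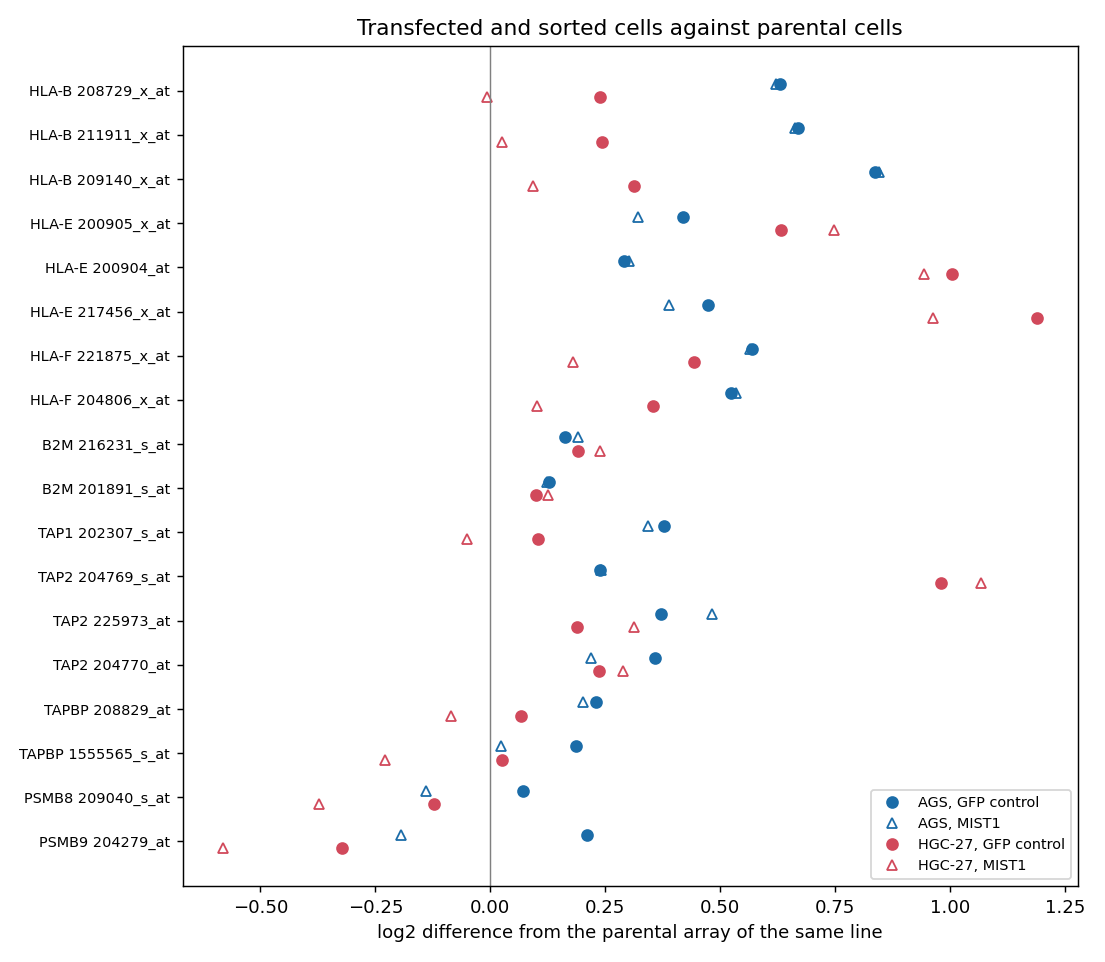
log2 difference of each transfected array from the parental array of its line for the 18 probe sets past the filter; filled circles are GFP controls, open triangles the arrays labelled MIST1, blue AGS and red HGC-27. HLA-B lies further right in AGS, HLA-E and TAP2 204769_s_at further right in HGC-27, and PSMB8 and PSMB9 lie left of 0 in HGC-27.

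The study's own question was what MIST1 raises, read here as the array labelled MIST1 against the GFP control of its line. In AGS, HLA-B, HLA-F, B2M and TAP1 read 0.976 to 1.02-fold the GFP control. In HGC-27 the HLA-B, HLA-F, tapasin and immunoproteasome probe sets read 0.833 to 0.899-fold, and B2M and TAP2 1.02 to 1.09-fold. No member passed the test, and none of all 30923 probe sets did (0%), with 389 (1.26%) and 0 members at an unadjusted p under 0.05 by limma. The spread in this fit also holds differences between the lines in their change from parental cells. The lack of calls therefore does not show that the 2 conditions were alike. Fitted on only the 4 arrays compared, 52 of all probe sets were called, with 0 members. No member differed by 1.5-fold in either direction in either line, against 1.37% higher and 0.805% lower of all probe sets in AGS and 1.37% higher and 1.31% lower in HGC-27.

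PSMB9 had the largest difference among the members. The array labelled MIST1 read 0.755-fold (AGS) and 0.837-fold (HGC-27) the GFP control (limma difference -0.33, SE 0.19, adjusted p = 1). PSMB8 read 0.864 and 0.841-fold (-0.23, SE 0.14, adjusted p = 1), and TAPBP 1555565_s_at 0.893 and 0.839-fold (-0.21, SE 0.14, adjusted p = 1). For these 3 the lower value was in both lines.

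Among the heavy chains, HLA-B read 0.994 to 1.01-fold in AGS and 0.844 to 0.859-fold in HGC-27, and HLA-F 0.996 to 1.01-fold and 0.833 to 0.840-fold. HLA-E ran from 0.934 to 1.01-fold in AGS and from 0.855 to 1.08-fold in HGC-27, with no direction shared by its probe sets. B2M read 0.997 to 1.02-fold in AGS and 1.02 to 1.03-fold in HGC-27, TAP1 0.976 and 0.898-fold, and TAP2 0.909 to 1.08-fold and 1.04 to 1.09-fold.

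Over the 18 members, 9 were lower in both lines, against 32.5% of all probe sets, and 3 higher in both, against 23.8%. In HGC-27 alone 12 of 18 were lower, against 58.7%, and in AGS 12 of 18, against 48.6%. The members' median was -0.10 on the log2 scale, beside -0.02 for all probe sets. The comparison shares its GFP arrays with the one against parental cells, so the values of the 2 are not independent.

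**Figure D3:**
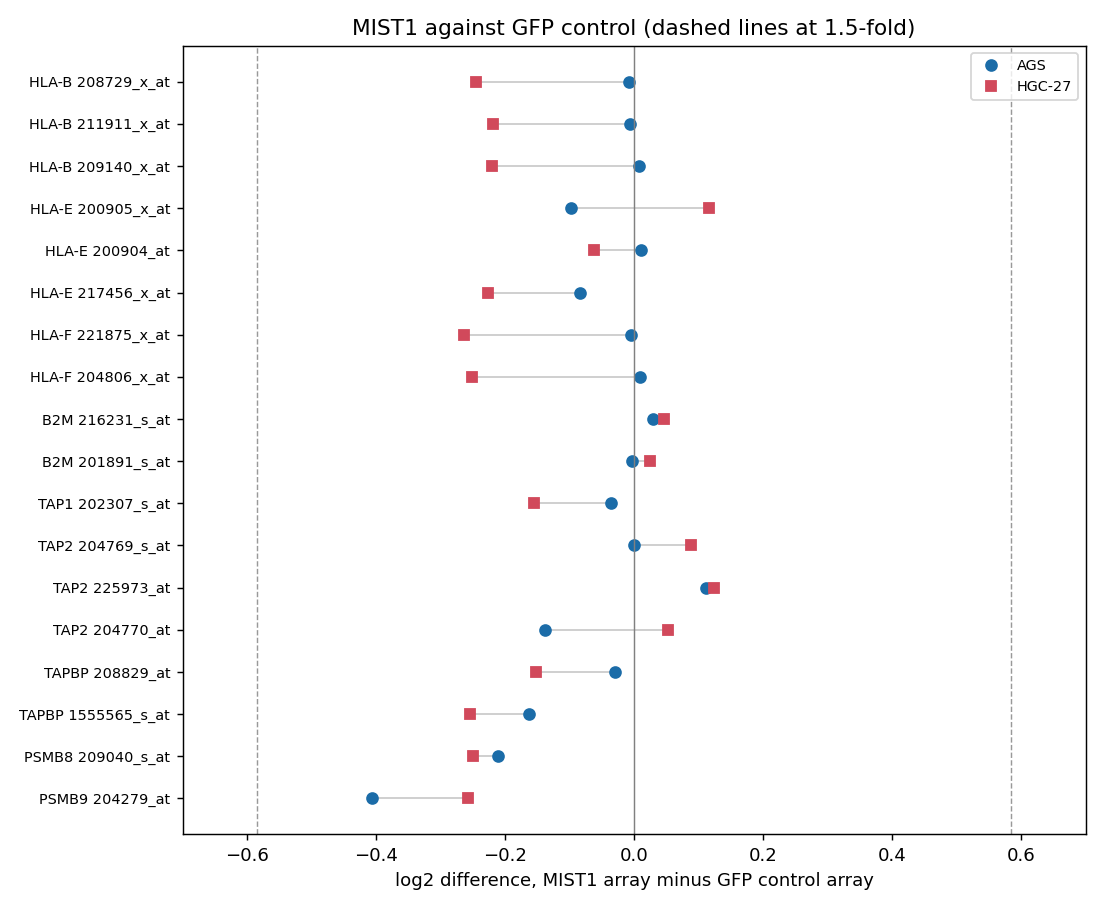
log2 difference of the array labelled MIST1 from the GFP control of the same line for the 18 probe sets past the filter; blue circles are AGS, red squares HGC-27, and dashed lines mark 1.5-fold. Every point lies inside the dashed lines, and PSMB9 in AGS lies furthest to the left at -0.41.

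The lines set more members apart than any condition did. With the 3 arrays of a line as its replicates, 13 of 18 members were higher in AGS by limma, against 31.3% of all probe sets, and 2 lower, against 25.8%; p-values here measure spread across conditions, not between cultures. For the same 13 and 2 probe sets the arrays of the lines did not overlap, against 32.5% and 26.1% of all. The 13 are of 7 genes and include all 7 _x_at heavy chain probe sets, which may share signal, so they are not separate observations. The heavy chain probe set past the filter without that mark, HLA-E 200904_at, was not called. The members' median was 0.75 on the log2 scale, beside 0.06.

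PSMB8 was 2.79-fold higher in AGS (difference 1.48, SE 0.12, adjusted p = 5.75e-05), TAP1 2.36-fold (1.24, SE 0.13, adjusted p = 0.000208) and HLA-B 1.97 to 2.49-fold over its 3 probe sets (adjusted p from 0.000139 to 0.00112). HLA-F was 1.79 and 1.84-fold higher, TAPBP 1.56 and 1.63-fold, and B2M 1.29 and 1.30-fold, each past the test. HLA-E was 1.72 and 2.05-fold higher with 200905_x_at and 217456_x_at, while 200904_at overlapped between the lines (0.27, SE 0.17, adjusted p = 0.214). PSMB9, the neighbour of TAP1, did not share the direction: its AGS and HGC-27 arrays overlapped (-0.18, SE 0.15, adjusted p = 0.341).

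TAP2 depended on the probe set. HGC-27 was 4.15-fold higher with 225973_at (difference AGS minus HGC-27 -2.05, SE 0.12, adjusted p = 1.47e-05) and 2.44-fold higher with 204770_at (-1.28, SE 0.13, adjusted p = 0.000172). With 204769_s_at AGS was 1.34-fold the HGC-27 value and the lines overlapped (0.43, SE 0.18, adjusted p = 0.0816). No direction is therefore given for TAP2 as a gene.

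**Figure D4:**
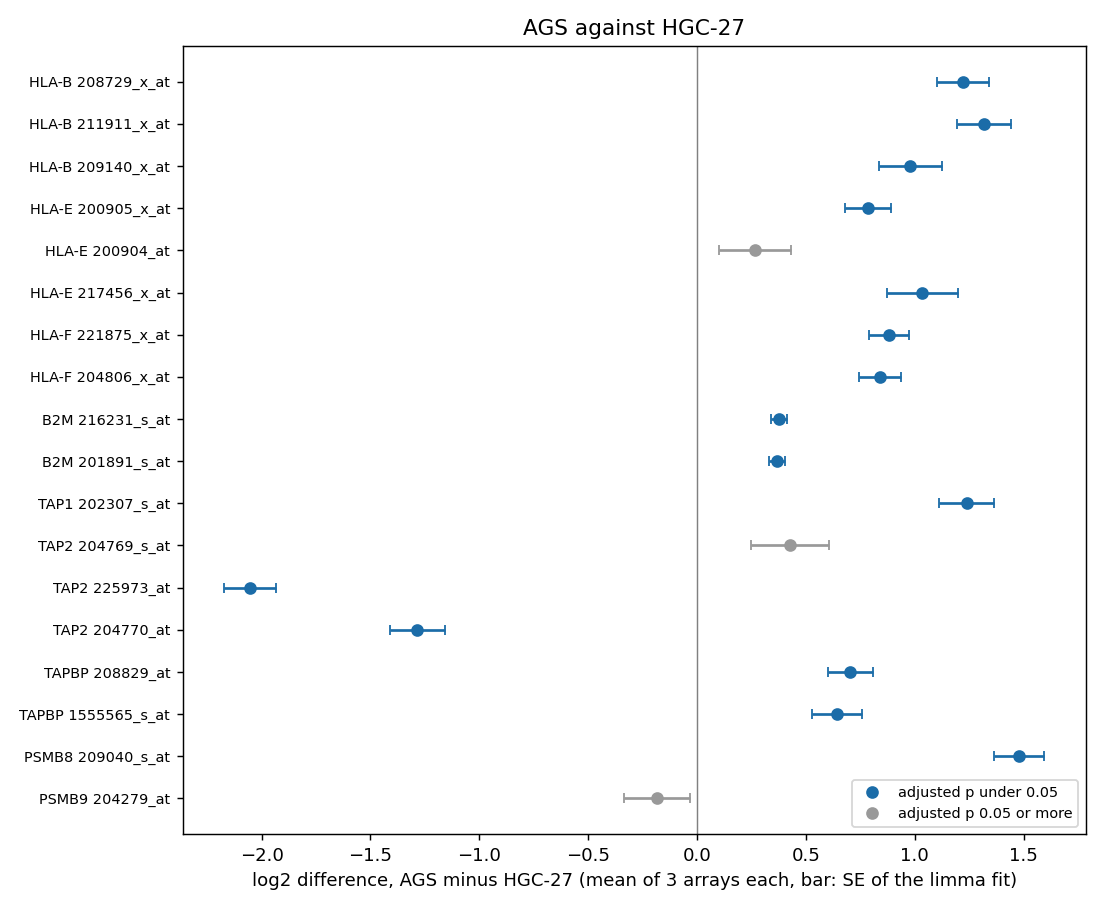
Difference AGS minus HGC-27 on the log2 scale (mean of 3 arrays per line, bars the SE of the limma fit) for the 18 probe sets past the filter; blue points have an adjusted p under 0.05. Most members lie right of 0, PSMB8 furthest, and 2 TAP2 probe sets lie far to the left.

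The rest of the pathway was counted from lists, with 1 probe set per gene. The list calls against parental cells depend on the settings. Those of the GFP control (HLA-J, BST2 and HLA-DRB1, 3 in all) were all lost when the floor was left out or set at the median, and without the filter, the trend or the line as a block. The 9 in the arrays labelled MIST1 (those 3, ERAP2, IRF9, IFI27, IFITM3, TRIM22 and PARP9) were all lost under the last 3 of these settings, and 8 of 9 with the floor at the median. The 17 calls of a difference in response between lines, the epithelial markers KRT18 (-0.88) and CDH1 (1.51) among them, were all lost with the floor at the median and whenever 1 transfected array was left out; 3 were kept without the filter and 2 without the trend. Of the other class I and class I-like genes, 9 of 11 were on the array under a single gene and 8 passed the filter. Against parental cells 1 of 8 was called in the GFP control, against 1.15% of all probe sets. This was the pseudogene HLA-J, which was higher and whose probe set is also an _x_at one. It read 1836, 3103 and 3456 in AGS, against 911, 1592 and 1437 in HGC-27 (difference 0.78, SE 0.11, adjusted p = 0.0437). HLA-C, a classical heavy chain, read 1579, 2393 and 2402 in AGS, against 1209, 1419 and 1157 in HGC-27, with the GFP control at 1.52-fold and 1.17-fold the parental value (0.42, adjusted p = 0.183). Between lines 6 of 8 were higher in AGS and 1 lower, against 31.3% and 25.8% of all probe sets. HLA-C, HLA-G and HLA-J, among those higher, were read by _x_at probe sets. The lower one was MR1, which presents vitamin B metabolites.

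Peptide loading and trimming genes showed no call in the GFP control, 0 of 11, with 4 positive and 7 negative values. Of all probe sets 1.15% were called there and 57.8% were positive. PDIA3, the disulfide isomerase of the loading complex, read 8085, 7166 and 6555 in AGS, against 5601, 3825 and 3768 in HGC-27 (-0.36, adjusted p = 0.0949). ERAP2, an aminopeptidase that trims peptides, read 854, 651 and 515 in AGS, against 209, 151 and 105 in HGC-27. It was lower in the arrays labelled MIST1 than in parental cells (-0.86, adjusted p = 0.0407), a comparison in which 3.56% of all probe sets and 0 members were called. HSPA5, the chaperone BiP, differed in response between lines (-0.48, adjusted p = 0.0304), with 10546, 8952 and 8139 in AGS, against 10136, 5882 and 5895 in HGC-27. Of the genes of the alternative proteasome and its activator, 0 of 4 were called in the GFP control, against the same 1.15%. POMP, which helps proteasomes assemble, differed in response between lines (0.27, adjusted p = 0.0411). Of the constitutive catalytic subunits, 0 of 3 were called in the GFP control, against 1.15% of all probe sets. All 3 had positive values, against 57.8%, PSMB6 among them with 0.24 (adjusted p = 0.117).

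Of 17 regulators of class I genes past the filter, 0 were called in the GFP control, against 1.15% of all probe sets. They had 10 positive values and 7 negative, where 57.8% of all probe sets were positive. IRF1, a transcription factor that binds the ISRE, read 508, 635 and 609 in AGS, against 194, 363 and 329 in HGC-27 (0.61, SE 0.18, adjusted p = 0.118). IRF9, the DNA-binding part of the interferon-activated complex ISGF3, read 951, 1554 and 1658 in AGS, against 190, 289 and 309 in HGC-27 (0.66, adjusted p = 0.0589). In the arrays labelled MIST1 it was higher than in parental cells (0.75, adjusted p = 0.0395). SOCS1, an inhibitor of interferon signalling, had the most negative value, with 109, 50.1 and 89.2 in AGS, against 189, 63.5 and 77.25 in HGC-27 (-1.35, adjusted p = 0.0606). RFXAP, a subunit of the RFX complex that binds class I and class II promoters, had -0.47 (adjusted p = 0.151). NLRC5, the class I transactivator, was dim at 50.5 to 110. The response differed between lines for RFX5, NFKB2 and EZH2, 3 of 17, each with a more positive value in HGC-27, against 9.95% of all probe sets in either direction. The 7 interferon receptor and kinase genes were all positive in the GFP control, against 57.8% of all probe sets, and 0 were called, against 1.15%. IFNGR1, a chain of the interferon-gamma receptor, differed in response between lines (0.55, adjusted p = 0.039).

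Of 28 interferon-stimulated genes past the filter, 1 was called in the GFP control, against 1.15% of all probe sets. It was BST2 (tetherin, which holds budding virus at the membrane). Positive values were found in 24 of 28, against 57.8% of all probe sets. BST2 read 199, 590 and 465 in AGS, against 9.54, 78.2 and 63.2 in HGC-27 (1.86, SE 0.21, adjusted p = 0.0416). Its HGC-27 parental value lies below the floor, so that change is understated. The list's median was 0.29, beside 0.06 for all probe sets, and its summed intensity over 30 genes was 32975, 43978 and 41829 in AGS, against 14269, 20331 and 20042 in HGC-27. The response was more positive in HGC-27 for 5 of 28 (IFIT3, IFITM1, IFITM2, IFITM3 and SP100) and less positive for 3 (OAS1, OAS3 and GBP1). Of all probe sets, 9.95% were called there in either direction. For IFIT3 and SP100 the GFP control was 0.839 and 0.878-fold the parental value in AGS. GBP1 read 58.2, 170 and 159 in AGS, against 13.0, 12.1 and 10.6 in HGC-27. Its HGC-27 values all lie below the floor, so its difference holds the AGS change only. OAS1, a double-stranded RNA sensor, read 564, 1192 and 1181 in AGS, against 82.3, 54.8 and 61.6 in HGC-27. In the arrays labelled MIST1, 5 of 28 passed limma's test against parental cells, where 3.56% of all probe sets did. BST2 (1.54, adjusted p = 0.0339), IFI27 (1.19, adjusted p = 0.0402), TRIM22 (1.13, adjusted p = 0.0438) and IFITM3 (0.42, adjusted p = 0.0465) were higher, and PARP9 lower (-1.16, adjusted p = 0.0395). Between lines 22 of 28 were higher in AGS and 2 lower, against 31.3% and 25.8% of all probe sets. The part of these genes in the members' values was not tested.

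Class II genes, which present peptides taken up from outside the cell, had 2 positive and 3 negative values in the GFP control. Of all probe sets 57.8% were positive there and 1.15% were called. Of 9 on the array 5 passed the filter, and HLA-DRB1 was lower in the GFP control, with 560, 257 and 249.6 in AGS, against 639, 290 and 368 in HGC-27 (-1.13, adjusted p = 0.0453). Its probe set is an _x_at one, so the values may hold signal of related transcripts, which was not tested. HLA-DMA, which loads peptides onto class II, read 86.6, 92.3 and 116 in AGS, against 54.9, 190 and 233 in HGC-27, and differed in response between lines (1.68, adjusted p = 0.0283). HLA-DRA, the defining class II chain of antigen-presenting cells, read 13.4 to 30.5 and did not pass. Of the leukocyte markers 1 of 5 passed, CD3E, and their summed intensity lay between 104 and 160. Of the endothelial markers 1 of 3 passed, with sums from 120 to 144.

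The genes whose pattern over the 6 arrays was most like the mean of the members, with 1 probe set per member, were KIF1C (r = 0.9998), MACROH2A1 (0.9994), ZNF570 (0.9991), YIF1B (0.9988) and PCGF5 (0.9986). That mean was 9.98, 10.30 and 10.22 on the log2 scale in AGS, against 9.27, 9.52 and 9.40 in HGC-27. KIF1C, a kinesin, read 220, 279 and 262 against 125, 154 and 139. The 6 points fall into the 2 lines, and 3059 of 20546 candidate probe sets reached r of at least 0.95.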

How the data were processed

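The authors deposited 1 intensity per probe set and array on a linear scale (0.48 to 19070). The series' design text names dChip, and whether the deposited intensity values are its model values, and with which background correction and scaling, was not given in the sources used here. Genes come from the platform annotation, with symbols updated through the gene ID. After leaving out 62 control probe sets, values were set to a floor at their 25th percentile (17.6) and taken to log2, with no further scaling (array medians 49.0 to 51.8). Probe sets above the median of all values (50.4) on at least 2 of 6 arrays were kept, 30923 in all.

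Conditions were compared with limma 3.58.1 in R 4.3.3 (lmFit, eBayes with a trend), with condition and cell line in 1 model of 6 arrays, 2 residual and 4.59 prior degrees of freedom. The difference in response used line, transfection and their interaction (4.17 prior degrees of freedom). Tests were two-sided, adjusted by Benjamini-Hochberg over all 30923 probe sets, at 0.05. The p-values of the comparisons of conditions measure the spread between single arrays of 2 lines. Those of the difference in response measure the spread between the 2 transfected arrays of a line, and those between lines the spread across conditions. The number of arrays limits the precision. The replicate number stands for the cell line, so the block pairs arrays of the same line, per the labels. The code was tested on simulated data.

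Members and lists were chosen with earlier results of these data known. Named were all member probe sets and the 5 most similar patterns; a list gene could be named only if it passed a test, differed at least 2-fold between 2 compared arrays or bore on a member. PDIA3, HLA-C, NLRC5, PSMB6, IRF1, RFXAP, HLA-DRA, PTPRC and CD3E were named after their values were seen. Alternatives were the floor, the filter, normalization, the trend, the block, 1 probe set per gene, only the arrays compared, and each array left out.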

Additional observations from a re-analysis of the deposited data

Results flagged for a closer look

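The response to transfection differed between HGC-27 and AGS by a test of the difference itself for 3 probe sets: HLA-B 209140_x_at (-0.64 on the log2 scale), HLA-E 200904_at (0.68) and TAP2 204769_s_at (0.78). The array labelled MIST1 lay on opposite sides of the GFP control in the 2 lines for 6 probe sets. The differences of the change, HGC-27 minus AGS, were -0.23 for HLA-B 209140_x_at, 0.21 for HLA-E 200905_x_at, -0.072 for HLA-E 200904_at, -0.26 for HLA-F 204806_x_at, 0.029 for B2M 201891_s_at and 0.19 for TAP2 204770_at. With 1 array per condition and line, the difference was not tested for these 6.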

How the results depend on the processing

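Counts below are of member probe sets called. MIST1 against the GFP control had 0 under all 16 alternatives, and AGS against HGC-27 had 14 to 16, or 7 of 9 with 1 probe set per gene, which tests fewer members. GFP control against parental had 0, and 6 with only the 4 arrays compared (2093 called among all probe sets, against 356). MIST1 against parental had 0, and 1 after quantile normalization or with only the 4 arrays. The difference in response between lines had 3, and 0 with the floor at the median, 0 without the trend, 1 after quantile normalization, and 1 with 1 probe set per gene. With 1 array left out the counts ran from 0 to 12 for GFP control against parental, 0 to 11 for MIST1 against parental and 15 to 16 between lines, and were 0 in all 4 possible fits for the difference in response; leaving out a parental array could not be fitted there. The high counts came without a parental array, where 32.1% to 37.2% of all probe sets were called, against 1.15% and 3.56% with all arrays. Without the replicate block, which pairs the arrays of a line, all 3 comparisons of conditions had 0 members called, as with it; over all probe sets the calls went from 356 to 0 for GFP control and from 1102 to 0 for MIST1 against parental, the list genes HLA-J, BST2, HLA-DRB1, IRF9 and ERAP2 among them. Except where a value above shows it, the cause was not tested.

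The difference in response of B2M 216231_s_at turned to -0.058 after quantile normalization (0.038 otherwise). With 1 array left out, MIST1 against the GFP control changed sign for HLA-B 208729_x_at (-0.34 to 0.090), 211911_x_at (-0.33 to 0.10) and 209140_x_at (-0.35 to 0.14), HLA-E 200905_x_at (-0.15 to 0.17), 200904_at (-0.22 to 0.17) and 217456_x_at (-0.37 to 0.060), HLA-F 221875_x_at (-0.30 to 0.026) and 204806_x_at (-0.29 to 0.053), B2M 201891_s_at (-0.0037 to 0.025), TAP1 (-0.22 to 0.033), TAP2 204769_s_at (-0.18 to 0.27) and 204770_at (-0.12 to 0.035) and TAPBP 208829_at (-0.19 to 0.011). PSMB8 and PSMB9 did so for GFP control against parental (-0.13 to 0.081 and -0.29 to 0.17), and TAP2 204770_at for the difference in response (-0.096 to 0.042).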
